A study of Homo sapiens with 2 samples.

Results

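The fibroblast growth factor (FGF) receptors and ligands were examined in ACHN, an established human renal carcinoma cell line that the labels call clear cell. The set held 10 genes of the 18417 with a transcript cluster of their own: the receptors FGFR1, FGFR2, FGFR3, FGFR4 and FGFRL1, the ligands FGF1, FGF2, FGF5 and FGF18, and the carrier protein gene FGFBP1. A gene was included when its symbol was the single symbol that the platform annotation gives for a transcript cluster, the group of probes that the array summarises into a single value. All 10 genes had exactly 1 such cluster, and no cluster shared between several genes named any of them. In the knockdown culture ACHN cells had been transfected with an shRNA against Kindlin-2, and in the other with a control shRNA. Both cultures were grown in serum-containing minimum essential medium under G418, a drug that selects transfected cells. Total RNA of each was hybridised to 1 Affymetrix Human Gene 1.0 ST array. With n = 1 in each group no p-value or standard error could be given, and each difference describes these 2 arrays. The labels do not say whether a culture was a clone or a pool, so a difference between cultures and an effect of the shRNA cannot be told apart.

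FGFs are secreted ligands that bind FGF receptors together with heparan sulphate, a sugar chain of cell surface and matrix proteoglycans. A bound receptor dimerises, phosphorylates the docking protein FRS2 and signals through RAS to the MAP kinase ERK, through PI3K to AKT and through phospholipase C gamma. ERK signalling induces the ETS factors ETV4 and ETV5 together with its own inhibitors, the Sprouty and Spred proteins and the phosphatase DUSP6. In kidney, FGFR2 is known for its role in the growth and branching of the ureteric bud. Kindlin-2, the product of FERMT2, binds the tails of beta integrins.

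Sequences are given for the 3 genes of the set that were at least 1.5-fold lower in the knockdown array, because these carried the largest differences of the set, all in the same direction. Each is the stretch of 250 bases upstream of a gene start, 5′ to 3′ on the gene's strand, from RefSeq on GRCh38.p14, with the GC box (GGGCGG or its reverse complement CCGCCC) in capitals. FGFR2 has 5 starts in that table, FGFR4 has 2 and FGF18 has 1, and the most upstream start is shown. Which start these cells use was not measured.
FGFR2, chr10:121598445-121598694, minus strand: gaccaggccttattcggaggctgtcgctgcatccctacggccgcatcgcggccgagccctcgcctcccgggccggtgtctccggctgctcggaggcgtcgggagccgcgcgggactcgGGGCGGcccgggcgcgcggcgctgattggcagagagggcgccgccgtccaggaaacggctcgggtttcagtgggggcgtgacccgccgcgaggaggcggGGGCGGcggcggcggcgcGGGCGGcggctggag
FGFR4, chr5:177086665-177086914, plus strand: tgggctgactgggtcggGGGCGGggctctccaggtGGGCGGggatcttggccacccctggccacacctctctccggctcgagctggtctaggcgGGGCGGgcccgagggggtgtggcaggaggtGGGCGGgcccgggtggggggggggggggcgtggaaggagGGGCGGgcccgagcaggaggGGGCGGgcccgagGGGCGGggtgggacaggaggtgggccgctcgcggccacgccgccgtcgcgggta
FGF18, chr5:171419397-171419646, plus strand: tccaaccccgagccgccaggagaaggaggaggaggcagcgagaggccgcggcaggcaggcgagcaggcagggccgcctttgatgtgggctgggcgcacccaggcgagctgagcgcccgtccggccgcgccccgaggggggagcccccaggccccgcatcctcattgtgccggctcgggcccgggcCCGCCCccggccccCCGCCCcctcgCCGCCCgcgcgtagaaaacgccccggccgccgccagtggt
The GC box matched 3 times in FGFR2, 7 times in FGFR4 and 3 times in FGF18. It occurred in 42.6% of all 35116 promoters of the same length. It also occurred in 4 of the 6 other genes of the set with a promoter in the table, FGFR3, FGFRL1, FGF2 and FGF5, none of which was 1.5-fold lower. The AP-1 site TGANTCA, the TEAD site GGAATG, the ETS core CCGGAA and the TATA box TATAAA were searched on both strands and matched in none of these 9 windows. They occurred in 6.57%, 11.9%, 14.5% and 10.7% of all promoters, in that order. The G and C share was 78.4% for FGFR2, 79.6% for FGFR4 and 78.8% for FGF18, against a median of 58.0% for all promoters. It was as high or nearly so in genes of the set that were not 1.5-fold lower, at 86.8% for FGFR3, with 8 GC boxes, and 75.2% for FGF2. A match describes the letters only and says nothing of binding.

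The label of the knockdown was checked first. FERMT2 had a log2 value of 8.26 in the Kindlin-2 shRNA array and 9.37 in the control shRNA array, a difference of -1.11. Of the 9 renal markers measured, 8 reached the floor of 6.52 (the median over both columns), among them PAX8, a transcription factor of kidney epithelium, with 11.29 in the Kindlin-2 shRNA array and 11.43 in the control shRNA array. These 8 markers had a median difference of -0.45, and 7 of them were below 0. The median over all genes kept, -0.02, also lay below 0. The share of those genes below 0 was not counted, but 57.1% of them lay below 0.026, the difference of FGF1. PAX2, another kidney transcription factor, differed by -0.66, and CDH16, a kidney cadherin, by -0.83. CDH16 was under the floor in the Kindlin-2 shRNA array, at 6.26, and was kept only through its control value of 7.10. Of the 8 endothelial markers 7 lay under the floor in both arrays, as did 5 of the 10 fibroblast and smooth muscle markers and 5 of the 6 leukocyte markers measured. ACTA2 and PDGFRB were 1.70-fold and 1.71-fold lower, and CD68, also a lysosomal gene, was 2.37-fold higher. PDGFRB was under the floor in the Kindlin-2 shRNA array, at 6.31, and was kept only through its control value of 7.08. What part these shifts have in the FGF results was not tested.

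The knockdown array had much less signal for FGFR2, less for FGFR4 and FGF18, and about the same signal for FGFRL1 and FGF2. FGFR2 stood at 17.5% of its control value, FGFR4 at 56.0% and FGF18 at 56.9%. Of the 10 genes, 8 reached the floor in at least 1 array and are counted here, while FGF1 and FGFBP1 lay under it in both. At least 2-fold lower was 1 gene, FGFR2, beside a background of 1.26% of the 11822 genes kept. FGFR2 was under the floor in the Kindlin-2 shRNA array, at 6.46, and was kept only through its control value of 8.98. At least 1.5-fold lower were 3 genes, FGFR2, FGFR4 and FGF18, beside a background of 5.23%. None was 1.5-fold higher, where the background was 5.1%, and none 2-fold higher, where it was 1.41%. The members were chosen with earlier results of these data known, so these counts beside the background are descriptions. The 8 genes had a median difference of -0.20, against -0.02 over all genes kept. With FGF1 and FGFBP1 included the median of the 10 was 0.03, and it was also 0.03 with the floor raised to the upper quartile, so its sign depended on the filter.

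**Figure D1:**
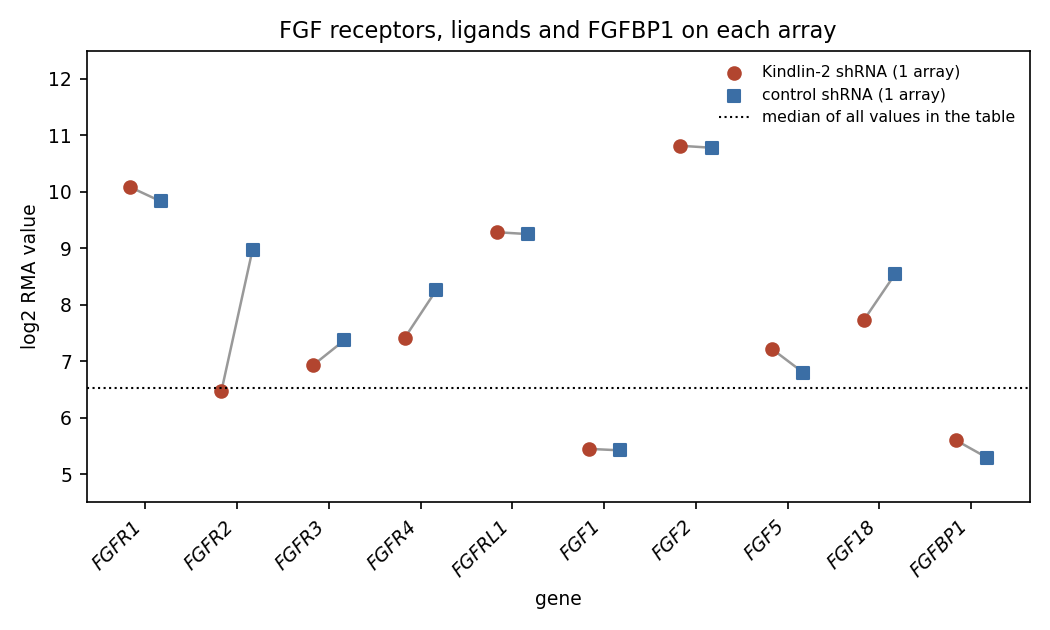
Log2 RMA value (vertical axis) of each gene (horizontal axis) in the Kindlin-2 shRNA array (circle) and the control shRNA array (square), 1 array each, with the median over both arrays at 6.52 (dotted). FGFR2 shows the widest gap, FGFR4 and FGF18 are lower in the knockdown array by about the same amount, and FGF1 and FGFBP1 lie under the dotted line in both arrays.

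Among the receptors, FGFR2 differed most. This receptor tyrosine kinase is made in an epithelial form (IIIb) and a mesenchymal form (IIIc) by a choice of exon. FGFR2 had a log2 value of 6.46 in the Kindlin-2 shRNA array and 8.98 in the control shRNA array. The knockdown value lay just under the floor of 6.52 and the control value well above it, so the gene passed the filter only through its control value, and the fold, count and ranks given for it are descriptions. The difference was -2.51, or 5.70-fold lower. Only 6 of the 11822 genes kept had a lower difference. When the genes kept were divided by brightness into 10 bins, its bin held 1182 genes with an SD of the difference of 0.40, and no other gene in it was as low. The cluster is annotated with 10 RefSeq mRNA accessions, so the value covers its isoforms together and the epithelial and mesenchymal forms could not be separated.

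FGFR4, a receptor that responds to the hormone-like FGF19 with the co-receptor KLB, was lower as well. It had a log2 value of 7.42 in the Kindlin-2 shRNA array and 8.26 in the control shRNA array, both above the floor. The difference was -0.84 (1.79-fold lower), and 235 genes kept, or 1.99%, had a lower one. Within its bin of brightness (SD 0.39) 17 other genes were as low. KLB itself lay under the floor, at 4.98 in both arrays, and FGF19 did too, at 6.21 in both.

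FGFR3, which restrains growth of cartilage and bone, had a log2 value of 6.93 in the Kindlin-2 shRNA array and 7.37 in the control shRNA array. Its difference of -0.44 (1.36-fold lower) stayed short of 1.5-fold, and 9.18% of the genes kept had a lower one. FGFR1, the receptor most linked with mesenchymal cells, ran the other way, with 10.09 in the Kindlin-2 shRNA array and 9.83 in the control shRNA array. Its difference of 0.26 (1.19-fold higher) was smaller than the SD of 0.39 over genes of like brightness, and 2009 genes kept had a higher one. FGFRL1, a receptor that binds FGFs but lacks the intracellular kinase domain, had 9.29 in the Kindlin-2 shRNA array and 9.25 in the control shRNA array. Its difference of 0.03 was near 0, and was -0.01 when the median of its autosome was subtracted. On these 2 arrays 3 of the kinase receptors were below 0 and FGFR1 was above it, under each of the 5 scalings and regional subtractions tried. All 5 used the same 2 arrays, so a stable sign does not tell how another pair of cultures would differ.

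**Figure D2:**
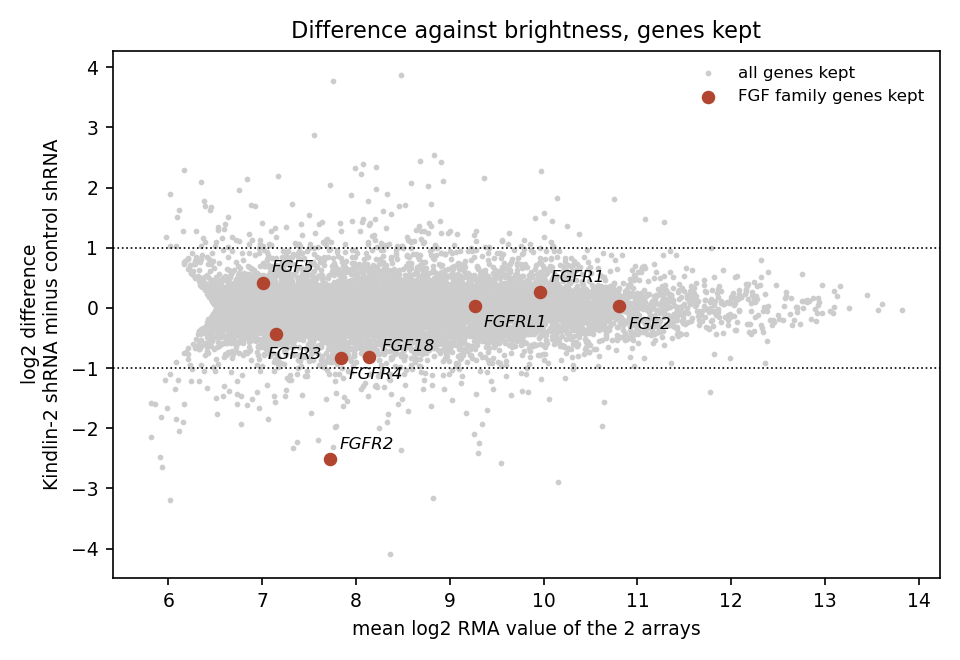
Log2 difference, Kindlin-2 shRNA minus control shRNA (vertical axis), against the mean log2 RMA value of the 2 arrays (horizontal axis), for all 11822 genes kept (grey) and the 8 FGF family genes among them (red), with dotted lines at 2-fold. FGFR2 lies at -2.51, apart from genes of like brightness, and the other 7 lie inside the dotted lines.

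Among the ligands, FGF18 was lower in the knockdown array. FGF18 is known for its part in bone, cartilage and lung growth. It had a log2 value of 7.73 in the Kindlin-2 shRNA array and 8.54 in the control shRNA array, both above the floor. The difference was -0.81 (1.76-fold lower), and 250 genes kept (2.11%) had a lower one. In its bin of brightness 18 other genes were as low.

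FGF2, basic FGF, which leaves cells without a classical signal peptide, had 10.82 in the Kindlin-2 shRNA array and 10.78 in the control shRNA array. Its difference of 0.04 changed sign with the setting, between -0.02 and 0.05. FGF5, known as a regulator of the hair cycle, had 7.22 in the Kindlin-2 shRNA array and 6.80 in the control shRNA array. The difference of 0.42 (1.34-fold higher) was the highest of the 8 genes kept, and 9.16% of all genes kept had a higher one. FGF1, acidic FGF, a ligand of all the kinase receptors, had 5.45 in the Kindlin-2 shRNA array and 5.42 in the control shRNA array. FGFBP1, a secreted protein that frees FGFs from the matrix, had 5.60 in the Kindlin-2 shRNA array and 5.29 in the control shRNA array. For FGF1 and FGFBP1 both values were dim, and the table has no detection calls that would tell a dim from an absent transcript.

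The position of the genes in the genome was compared with their values, because neighbouring genes can be shifted together. Only genes kept by the filter served as neighbours. The 50 nearest to FGFR2 on chromosome 10 had a median difference of 0.02, a lowest value of -0.44 and a highest of 0.95. None of these 50 was as low as FGFR2. The 50 nearest to FGFR4 on chromosome 5 had a median of 0.02, a lowest value of -0.65 and a highest of 2.05. Of these 50, 1 was at least 2-fold higher. The 50 nearest to FGF18, on the same chromosome, had a median of -0.02, a lowest value of -0.79 and a highest of 2.05. Of these 50, 4 were at least 2-fold higher, beside 1.41% of all genes kept. With these medians subtracted FGFR2 was at -2.53, FGFR4 at -0.86 and FGF18 at -0.80. FGFR3 and FGFRL1 on chromosome 4 had neighbour medians of -0.08 each, and FGFR3 was at -0.37 after subtraction. FGFR1 on chromosome 8 was at 0.19 and FGF5 on chromosome 4 at 0.33 after subtraction.

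**Figure D3:**
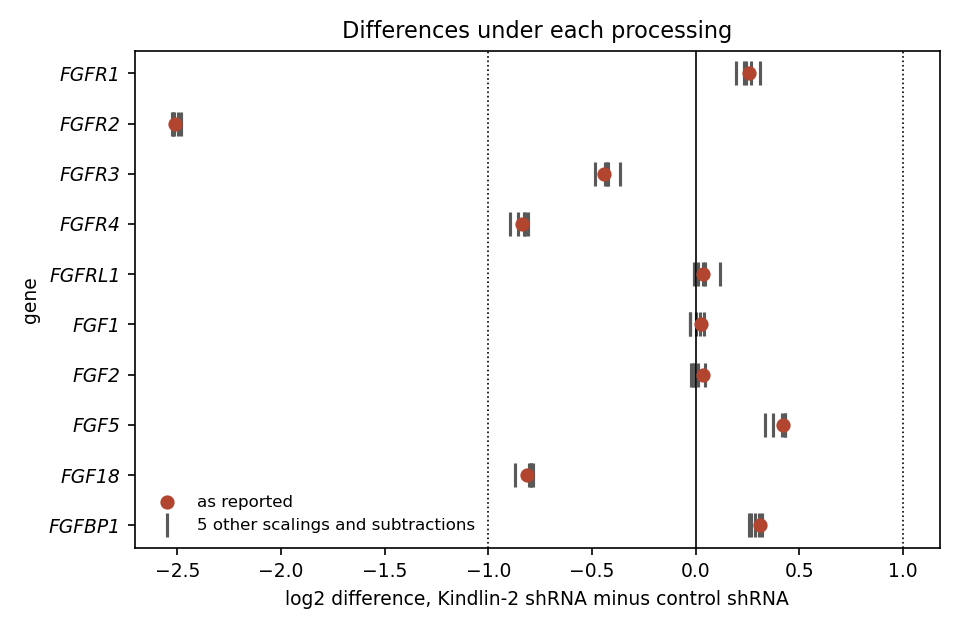
Log2 difference, Kindlin-2 shRNA minus control shRNA (horizontal axis), of each gene (vertical axis) as reported (circle) and under 5 other scalings and regional subtractions (bars), with dotted lines at 2-fold. FGFR2 stays between -2.53 and -2.48, FGFR4 and FGF18 stay between -0.89 and -0.78, and FGFRL1, FGF1 and FGF2 lie on both sides of 0.

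Other parts of the pathway were described through lists. The lists too were chosen with earlier results of these data known, so their counts beside the background are descriptions. Of the 14 other secreted FGF ligands, 8 lay under the floor in both arrays. The 6 kept differed by between -0.40 (FGF6) and 0.16 (FGF8), with none at 1.5-fold and a median of -0.05. FGF3 and FGF6 were under the floor in the knockdown array and were kept only through their control values. FGF8 was under it in the control array and was kept only through its knockdown value. FGF7 and FGF10, known ligands of the epithelial form of FGFR2, were among the 8 under the floor in both arrays. FGF7 had 4.27 in the Kindlin-2 shRNA array and 4.61 in the control shRNA array. FGF10 had 4.83 in the Kindlin-2 shRNA array and 4.62 in the control shRNA array. Of the 4 FGF homologous factors, intracellular relatives that do not act as classical ligands, 2 were kept, and FGF12 had 6.14 in the Kindlin-2 shRNA array and 6.78 in the control shRNA array. It was thus under the floor in the knockdown array and kept only through its control value. Of the 5 co-receptor and binding protein genes kept, none reached 1.5-fold. KL, the co-receptor Klotho, had 7.74 in the Kindlin-2 shRNA array and 8.16 in the control shRNA array.

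Heparan sulphate carriers differed in both directions, with 1 of 8 kept past 2-fold upward, 2 past 1.5-fold upward and 1 past 1.5-fold downward, beside 1.41%, 5.1% and 5.23% of all genes kept. The glypicans, proteoglycans held to the membrane by a lipid anchor, made up all 3. GPC4 had 9.16 in the Kindlin-2 shRNA array and 6.94 in the control shRNA array, GPC1 was 1.51-fold higher and GPC6 was 1.73-fold lower. Among 14 heparan sulphate enzymes kept, 2 were at least 1.5-fold lower and none was higher by that much, beside the same 5.23% and 5.1%. They were GLCE, the epimerase that converts glucuronic to iduronic acid (1.62-fold lower), and HS6ST1, a 6-O-sulphotransferase (1.51-fold lower).

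Inside the cell, all but 1 of the core pathway genes analysed here differed by less than 1.5-fold. Of 11 docking and adaptor genes kept, 1 was at least 1.5-fold lower (background 5.23%) and none 1.5-fold higher (background 5.1%), with a median of -0.17. That gene, GRB14, an adaptor that binds activated receptors and is best known as an inhibitor of the insulin receptor, had 7.81 in the Kindlin-2 shRNA array and 8.57 in the control shRNA array. Among 7 genes of the RAS-MAPK core (median -0.09) and 5 of the PI3K-AKT arm (median -0.13) none reached 1.5-fold. Below 0 were 9 of the 11 docking and adaptor genes, 6 of these 7 and 4 of these 5. Of all genes kept, 57.1% lay below 0.026, the difference of FGF1. The other 6 and 4 genes of the RAS-MAPK and PI3K-AKT lists, and 2 of the docking and adaptor list, FRS2 among them, were not analysed here.

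Negative regulators of FGF signalling and target transcription factors of FGF and ERK differed in both directions, while FGFR2, FGFR4 and FGF18 were lower. Of 11 negative regulators kept, 4 were at least 1.5-fold higher and 1 was 1.5-fold lower, beside the 5.1% and 5.23% of all genes kept, and the median difference was 0.17. DUSP6, the phosphatase that inactivates ERK, had 9.93 in the Kindlin-2 shRNA array and 8.91 in the control shRNA array. DUSP5, a nuclear ERK phosphatase, had 9.71 in the Kindlin-2 shRNA array and 8.77 in the control shRNA array. Both stood higher in the knockdown array, by 1.02 and 0.95 on the log2 scale. SPRED2, an inhibitor upstream of ERK, was higher by 0.66 on the log2 scale, whereas CBLB, a ubiquitin ligase, was 1.70-fold lower.

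Of 10 target transcription factors, 3 were at least 1.5-fold higher (background 5.1%) and 1 was 1.5-fold lower (background 5.23%). Of the 10, 4 were above 0 and 6 below it, EGR1 among the 6. Their median difference was -0.23, against -0.02 over all genes kept, and their mean was -0.0008. Among all genes kept, 57.1% lay below 0.026, the difference of FGF1. The 3 that were at least 1.5-fold higher were all ETS factors. ETV4 had 8.03 in the Kindlin-2 shRNA array and 6.81 in the control shRNA array. ETV5 was 1.80-fold and ETV1 1.54-fold higher. The immediate early gene EGR1 went the other way, with 8.17 in the Kindlin-2 shRNA array and 9.46 in the control shRNA array. ERK is driven by many receptors, and which of them were active in these cells was not measured.

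**Figure D4:**
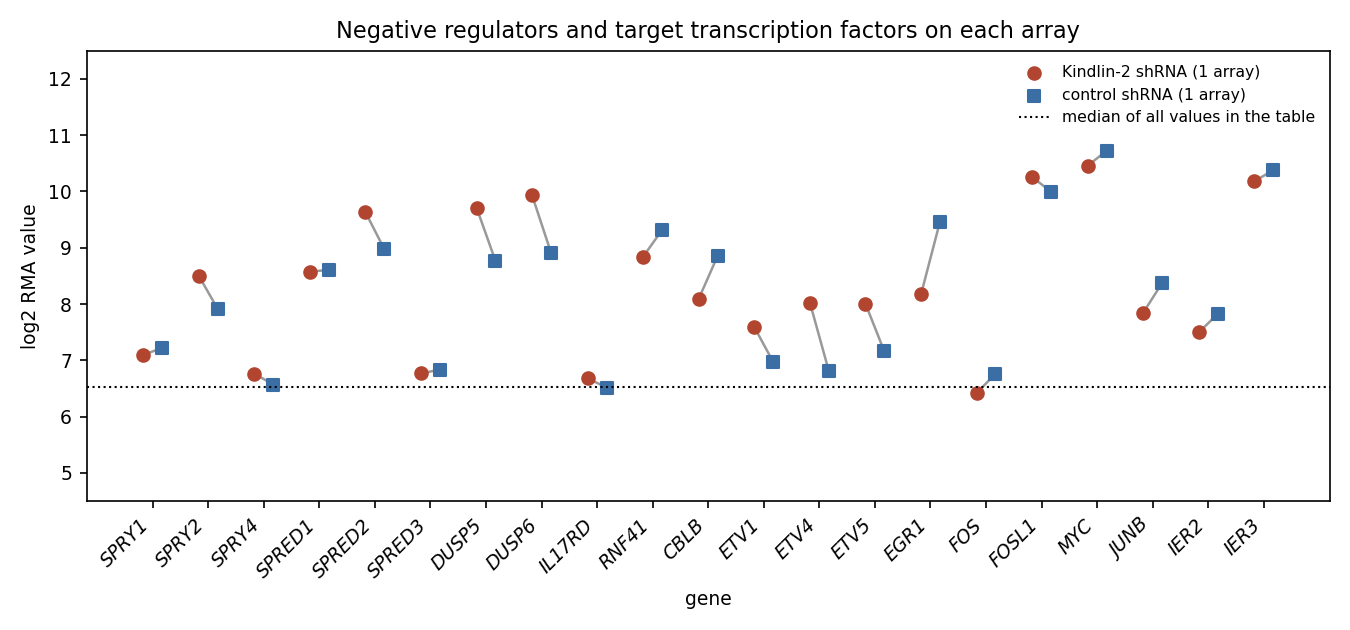
Log2 RMA value (vertical axis) of the negative regulators and target transcription factors kept (horizontal axis) in the Kindlin-2 shRNA array (circle) and the control shRNA array (square), 1 array each, with the median over both arrays at 6.52 (dotted). DUSP5, DUSP6, ETV4 and ETV5 are higher and EGR1 and CBLB lower in the knockdown array.

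**Figure D5:**
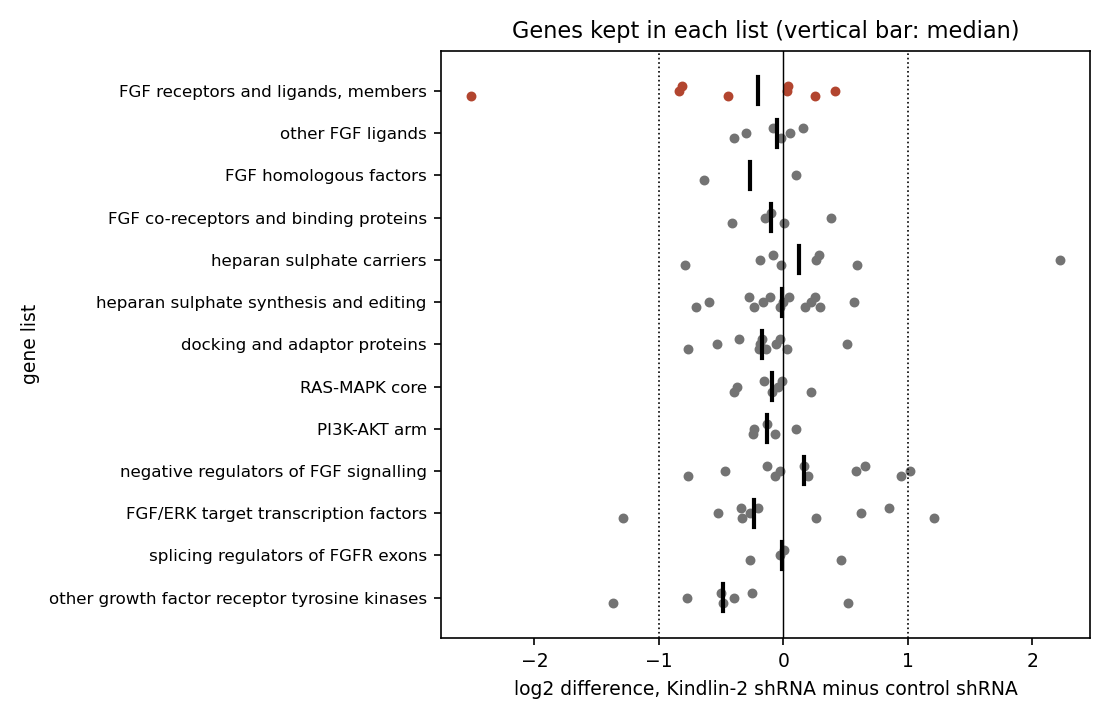
Log2 difference, Kindlin-2 shRNA minus control shRNA (horizontal axis), of the genes kept in each list (vertical axis), with the list's median as a bar and dotted lines at 2-fold. The FGF receptors and ligands (red) reach furthest below 0, through FGFR2 at -2.51, and GPC4 at 2.23 reaches furthest above it.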

How the data were processed

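The deposited table holds log2 values that, per the submitters' processing notes, the authors obtained by RMA with Affymetrix Expression Console (version 1.4.1). This method removes background, equalises the arrays' distributions and summarises the probes of a transcript cluster. It compresses differences that involve dim values. Values ran from 2.13 to 14.04. The set of arrays normalised jointly and the annotation build are not stated in the labels or the table. The number of arrays limits the precision. Symbols came from GEO's platform annotation, updated through Entrez IDs to RefSeq (GRCh38.p14) for 19429 of 19460 single-symbol clusters. The brightest cluster represented a gene. A gene was kept when its higher value reached 6.52, the median of all values, which left 11822 genes. The difference was Kindlin-2 shRNA minus control shRNA, counted at 2-fold and 1.5-fold. No test was possible with 1 array per group. Named genes were the 10 members, FERMT2 and up to 3 genes per list and direction at 1.5-fold, plus defining markers. FGF3, FGF6, FGF7, FGF8, FGF10, FGF19, KL and KLB were named after their values were seen. Members and lists were chosen with earlier results of these data known. Counting and regional subtraction were tested on simulated data. Promoters of 9 members came from RefSeq. Work was done in Python 3.11.15 with pandas 2.3.3 and statsmodels 0.14.6. Other scalings, filters, thresholds and regional subtractions were tried.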

Additional observations from a re-analysis of the deposited data

How the results depend on the processing

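Under 5 other settings (median, loess or quantile rescaling, and subtraction of the median of the autosome or of 50 neighbouring genes) FGFR2 stayed between -2.53 and -2.48, FGFR4 between -0.89 and -0.81, FGF18 between -0.87 and -0.78 and FGFR3 between -0.49 and -0.37. FGFR1 (0.19 to 0.31), FGF5 (0.33 to 0.43) and FGFBP1 (0.26 to 0.32) stayed above 0, whereas FGFRL1 (-0.01 to 0.12), FGF1 (-0.03 to 0.04) and FGF2 (-0.02 to 0.05) lay on both sides of it. The median over the set, -0.20, was 0.0297 with no filter, 0.0297 with the floor at the lower quartile and 0.0334 with the floor at the upper quartile, and the mean was -0.48. At a 1.5-fold threshold 3 members were lower in place of 1. Over all genes kept, 603 were higher and 618 lower at 1.5-fold and 40 and 44 at 3-fold, against 167 and 149 at 2-fold. With the floor at the upper quartile, 102 were 2-fold higher and 91 lower, with fewer genes kept. Averaging the clusters could move no member, since each had 1 cluster. No setting turned the sign of FGFR2, the only member that was 2-fold lower. The scalings and subtractions moved its difference of -2.51 by at most 0.03, so they could not have turned it. No paired analysis was possible because each group held 1 array, and no replicate could be left out. Scanner files were not used here, so background correction and probe summary were not varied, and dim genes such as FGF1 and FGFBP1 could not be separated into dim and absent.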

Other observations

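Most other growth factor receptor tyrosine kinases kept were also below 0 in the knockdown array. Of 13 such receptors 7 were kept, 6 of them below 0, 2 at least 1.5-fold lower and 1 at least 2-fold lower, beside 5.23% and 1.26% of all genes kept. Their median difference was -0.49, against -0.02 over all genes kept. That background median also lay below 0. The share of all genes kept below 0 was not counted, but 57.1% of them lay below 0.026, the difference of FGF1. With the 6 dim receptors included the median was -0.25. ERBB3, a receptor for neuregulins, had 6.57 in the Kindlin-2 shRNA array and 7.94 in the control shRNA array. PDGFRB, a receptor for platelet-derived growth factor, had 6.31 in the Kindlin-2 shRNA array and 7.08 in the control shRNA array, so it was under the floor in the knockdown array and kept only through its control value. AXL, the receptor for GAS6 and the only receptor of the 7 above 0, had 11.76 in the Kindlin-2 shRNA array and 11.24 in the control shRNA array, and it was named after its value was seen. Of the 7 splicing regulators of FGFR exons listed, 6 were measured and 4 were kept, none at 1.5-fold. The remaining 1 was not analysed here. ESRP2, which favours the epithelial form of FGFR2, lay under the floor in both arrays, with 6.14 in the Kindlin-2 shRNA array and 6.03 in the control shRNA array, and was likewise named after its value was seen.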
